A study of Orbicella faveolata with 18 samples.

Results

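Clones AOSB472 and AOSB1028 are 2 of the 1218 cDNA clones measured in embryos of the coral Montastraea faveolata. AOSB472 is annotated by the study as ubiquitin carboxyl-terminal hydrolase 5 and AOSB1028 as ubiquitin-conjugating enzyme E2 S. The pair was chosen by clone name with the temperature differences of these arrays already known, so those differences are given below as a description and without a test. The time effect over the 3 temperatures is a separate contrast, and it was tested. Each name rests on the study's annotation of the clone, and no sequence of either clone was used here.

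Gametes of several colonies were fertilized together, and the embryos, which carried no algal symbionts, were moved to 27.5, 29.0 or 31.5°C and sampled 12 or 48 hours after fertilization. Fertilization and the first hours took place in water warmer than the lower treatment temperatures and cooler than 31.5°C, so the time at a treatment temperature was shorter than the age of the embryos. No other treatment was applied, and 27.5°C served as the baseline. RNA of each of these 6 conditions was isolated once from embryos of pooled containers and hybridized to 3 arrays, giving 18 arrays. Cy5 carried the embryo RNA and Cy3 a common reference pool on every array, so each value below is a log2 ratio over that pool and a value of 1 means a doubling. The 3 arrays of a condition are technical replicates, and their spread does not hold the variation between cultures. The embryos were whole, so fewer cells that use a gene and less of its RNA per cell cannot be told apart.

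Ubiquitin is a small protein that cells attach to other proteins through a relay of an activating enzyme, a conjugating enzyme (E2) and a ligase (E3), and chains of it mark proteins for the proteasome. In mammals, ubiquitin carboxyl-terminal hydrolase 5 is a deubiquitinase that takes apart free ubiquitin chains and so returns single ubiquitin to the pool. Ubiquitin-conjugating enzyme E2 S lengthens ubiquitin chains on substrates of the anaphase-promoting complex, the ligase that drives cells out of mitosis in human cells. Ubiquitin-dependent turnover is a general feature of rapidly dividing embryos and of cells that clear damaged protein after heat.

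The arrays of 27.5°C at 12 hours stood apart from the rest before any result. They lacked a value for 241, 79 and 84 clones, against at most 26 on the other arrays, and had 1616 to 2067 spots with signal in both channels against 2583 to 3365. Arrays 1 and 2 of this condition carry another header code than the other 16, and array 1 correlated with its own condition at 0.68 to 0.69. Array 1 of 31.5°C at 12 hours and array 1 of 29.0°C at 48 hours correlated with theirs at 0.55 to 0.57 and 0.59 to 0.69. Neither clone lacked a value on any of the 18 arrays. Differences of the pair between conditions that rest on these arrays are given below with and without at least some of them. The shifts of these differences between time points and the gaps between the clones are given with all arrays only.

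AOSB472 was highest in the 29.0°C embryos sampled at 12 hours and lowest in the 27.5°C embryos sampled at 48 hours. At 12 hours its log2 ratios were 0.24, -0.54 and -0.64 on the 3 arrays of 27.5°C. They were 0.81, 1.21 and 1.14 at 29.0°C. At 31.5°C they were 0.24, 0.54 and 0.64. All 3 arrays of 29.0°C were above every array of the other temperatures at that time, while array 1 of 27.5°C reached the lowest array of 31.5°C. At 48 hours the ratios were -0.83, -0.98 and -1.33 at 27.5°C. They were -1.01, -0.37 and -0.34 at 29.0°C, and -0.29, -0.25 and -0.35 at 31.5°C. The arrays of 31.5°C were above all those of 27.5°C, and array 1 of 29.0°C fell among the arrays of 27.5°C. All 9 arrays at 48 hours were below 0, and 7 of the 9 at 12 hours were above it.

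AOSB1028 had its highest levels in different embryos, at 29.0°C after 12 hours and after 48 hours in the 31.5°C culture. Its log2 ratios at 12 hours were 0.21, -0.45 and -0.23 on the arrays of 27.5°C. At 29.0°C they were 0.38, 0.48 and 0.57, and at 31.5°C they were -0.06, 0.04 and -0.19. The arrays of 29.0°C lay above all others of that time, and those of 27.5°C and 31.5°C overlapped. After 48 hours the ratios were -0.43, -0.49 and -0.94 at 27.5°C. They were -0.66, -0.09 and -0.15 at 29.0°C. At 31.5°C they were 0.53, 0.62 and 0.42, above every other array of 48 hours.

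**Figure D1:**
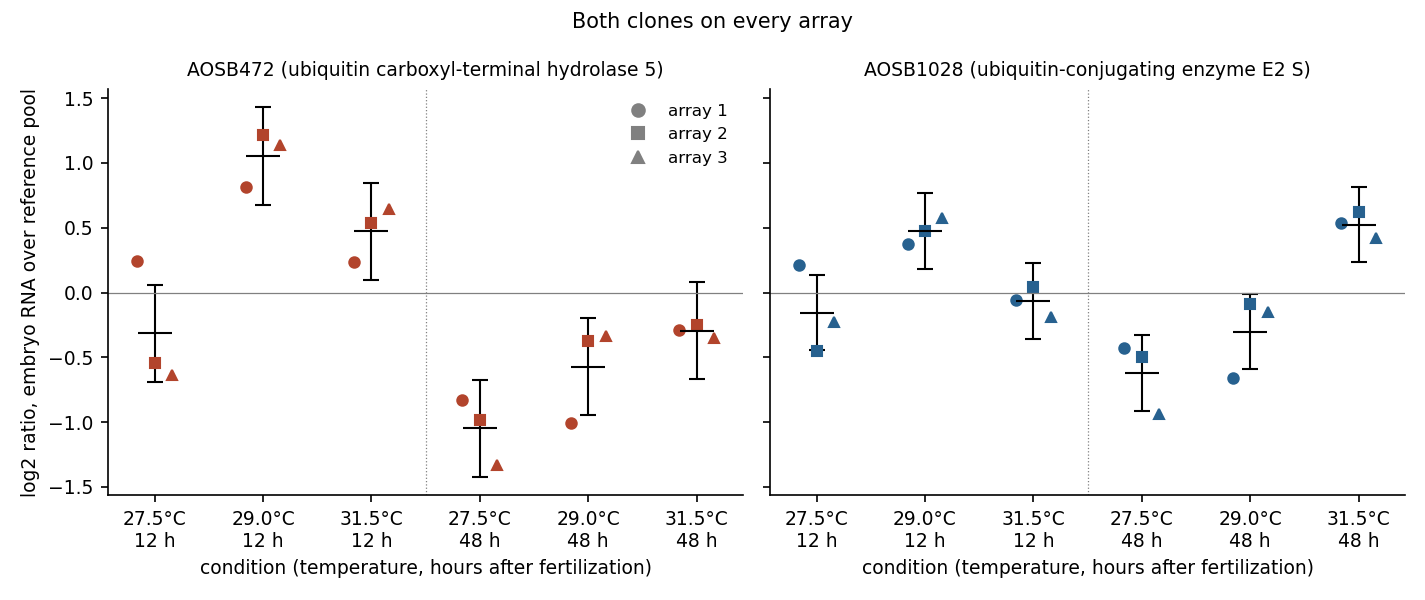
Log2 ratio of embryo RNA over the reference pool (vertical axis) for both clones in the 6 conditions (horizontal axis), with 1 symbol per array and the condition mean with its 95% interval in black (half-width 0.37 for AOSB472 and 0.29 for AOSB1028). AOSB472 peaks at 29.0°C and 12 hours with a mean of 1.05, and AOSB1028 is high both there (0.48) and at 31.5°C and 48 hours (0.52).

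Means over the 3 arrays put these patterns on 1 scale per clone. The means of AOSB472 at 12 hours were -0.31 ± 0.48 (SD over 3 arrays) for embryos at 27.5°C, 1.05 ± 0.21 for 29.0°C and 0.47 ± 0.21 for 31.5°C. At 48 hours they were -1.05 ± 0.26, -0.57 ± 0.38 and -0.30 ± 0.05 in the same order. For AOSB1028 the means were -0.15 ± 0.34, 0.48 ± 0.10 and -0.07 ± 0.11 at 12 hours, and -0.62 ± 0.28, -0.30 ± 0.31 and 0.52 ± 0.10 at 48 hours. AOSB472 spanned 2.10 between its highest and lowest condition, a 4.29-fold range that exceeded that of 93.7% of the 1099 clones with enough arrays in every condition. AOSB1028 spanned 1.14, or 2.21-fold, more than 68.2% of those clones. Both ranges hold temperature differences known when the clones were picked, so nothing is read from these shares.

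Conditions were compared by non-overlap of the 95% confidence intervals of their means, from a linear model with 1 technical spread per clone over the 6 conditions. The study's methods use non-overlap of Bayesian credible intervals, which were not computed here. That spread was 0.298 for AOSB472 and 0.232 for AOSB1028, against a median of 0.197 over the tested clones. A difference had to exceed 0.75 for AOSB472 and 0.58 for AOSB1028, which is called the limit below. Ordered from the highest, AOSB472 ran from 29.0°C at 12 hours through 31.5°C at 12 hours, 31.5°C at 48 hours, 27.5°C at 12 hours and 29.0°C at 48 hours to 27.5°C at 48 hours. Only the step from 31.5°C at 12 hours to 31.5°C at 48 hours, of 0.77, exceeded the limit between neighbours in this order. AOSB1028 ran from 31.5°C at 48 hours through 29.0°C, 31.5°C and 27.5°C at 12 hours to 29.0°C and then 27.5°C at 48 hours, and no neighbouring conditions differed beyond the limit.

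At 29.0°C after 12 hours both clones were above their level at 27.5°C, and the arrays of the conditions did not overlap for either. AOSB472 was 1.37 higher (95% interval 0.84 to 1.90), a 2.58-fold difference and the highest among the 1099 clones. AOSB1028 was 0.63 higher (0.22 to 1.04), or 1.55-fold, and stood 46th. Over all tested clones 6.82% were called higher in this comparison and 14.8% of the 918 clones with every array had all arrays apart upwards. Since the clones were picked with this contrast in view, nothing is read from their place in it. Without array 1 of 27.5°C, the highest of its condition for both clones, the differences were 1.64 and 0.82. Without both arrays of the other header code they were 1.69 and 0.71, and AOSB1028 then missed its limit of 0.72. The call of AOSB1028 was lost, at 0.48 to 0.63, when array 2 or 3 of either condition was left out.

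At 31.5°C after 12 hours AOSB472 was 0.79 higher than at 27.5°C (0.26 to 1.32), or 1.72-fold and past its limit, and AOSB1028 was 0.09 higher (-0.33 to 0.50). In this comparison 7.46% of the tested clones were called higher, and the arrays of AOSB472 overlapped. Without array 1 of 27.5°C, AOSB472 was 1.06 higher, and without both arrays of the other header code it was 1.11 higher, past the limit each time. Without array 1 of 31.5°C the differences were 0.90 for AOSB472, still called, and 0.08 for AOSB1028. The call was lost when 1 of 9 other arrays was left out, which were arrays 2 and 3 of 27.5°C, array 3 of 29.0°C and arrays 2 and 3 of 31.5°C at 12 hours, and array 2 of 27.5°C and any array of 31.5°C at 48 hours. The differences were then 0.62 to 0.79. Against 29.0°C, AOSB472 was 0.58 lower at 31.5°C (difference -0.58, interval -1.11 to -0.05) and AOSB1028 was 0.54 lower (-0.54, -0.96 to -0.13). Neither passed its limit, although all arrays lay apart for both, and without array 1 of 31.5°C the differences were -0.46 and -0.55, again within the limits. Of all tested clones 7.01% were called lower here, and 22.9% of those with every array had all arrays apart downwards.

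At 48 hours the smaller step in temperature left both clones within their limits. AOSB472 was 0.48 higher at 29.0°C than at 27.5°C (-0.05 to 1.01) and AOSB1028 was 0.32 higher (-0.09 to 0.73), where 2.64% of the tested clones were called higher. Without array 1 of 29.0°C, which had the lowest ratio of its condition for both clones, the differences were 0.69 and 0.50, each still within its limit.

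The step to 31.5°C took both clones past their limits at 48 hours. AOSB1028 was 1.14 higher than at 27.5°C (0.73 to 1.56), a 2.21-fold difference that stood 9th of the 1099 clones. AOSB472 was 0.75 higher (0.22 to 1.28), or 1.68-fold, and stood 45th. The arrays lay apart for both clones. In this comparison 8.64% of the tested clones were called higher and 34.6% of those with every array had all arrays apart upwards. The value of AOSB472 lay at the edge of its limit, with a difference of 0.752 against 0.750, and its call was lost when any array was left out other than arrays 1 and 3 of 27.5°C at 12 hours and array 1 of 27.5°C or of 29.0°C at 48 hours. Its differences then ran from 0.61 to 0.78. AOSB1028 kept its call with each array left out, at 0.98 to 1.24.

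AOSB1028 also separated the upper temperatures at 48 hours, and AOSB472 did not. The ratio of AOSB1028 at 31.5°C was 0.83 above that at 29.0°C (0.41 to 1.24), or 1.77-fold, with all arrays apart, and it kept this call with each array left out, at 0.65 without array 1 of 29.0°C. That of AOSB472 was 0.28 above (-0.25 to 0.81), and 0.06 above without array 1 of 29.0°C. Here 6.92% of the tested clones were called higher and 25.1% of those with every array had all arrays apart upwards.

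**Figure D2:**
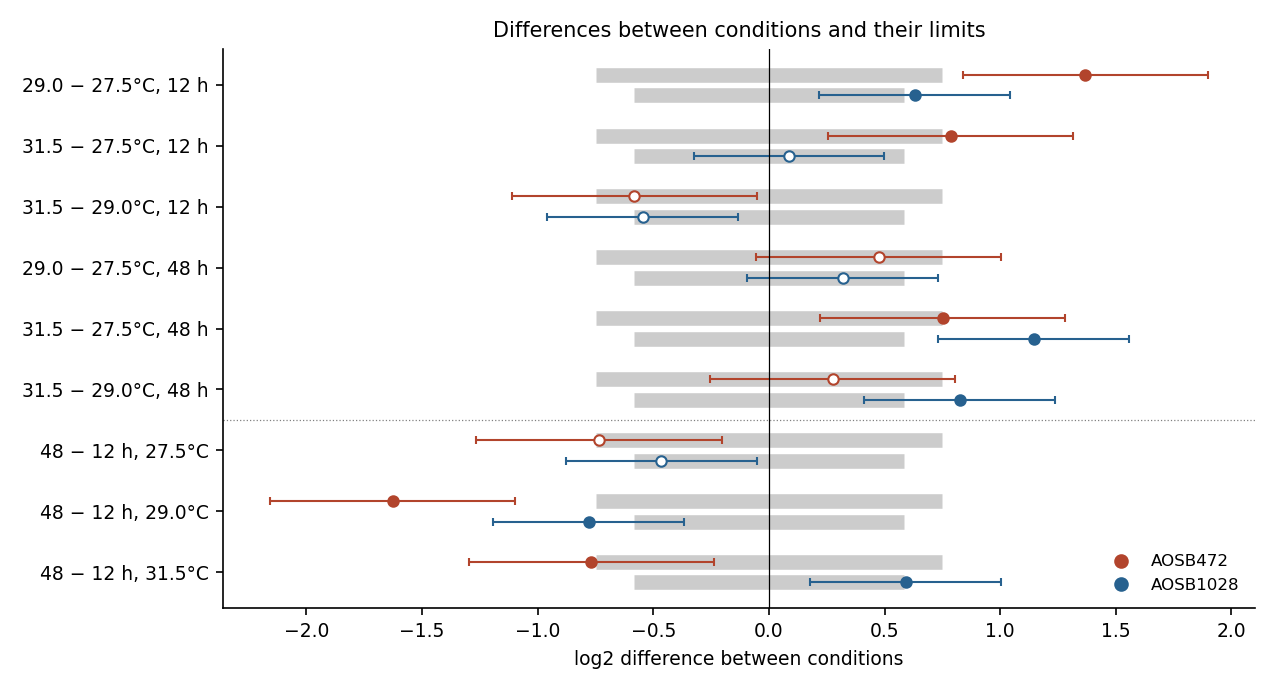
Log2 difference between conditions (horizontal axis) for AOSB472 and AOSB1028 in the 9 comparisons, each the first condition minus the second, with its 95% interval. Grey bars span the limit of each clone (0.75 and 0.58 to either side) and filled points lie past it, with AOSB472 farthest out at 29.0°C over time (-1.63) and AOSB1028 at 31.5°C against 27.5°C after 48 hours (1.14).

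The temperature differences of each clone were set against each other across the time points. For AOSB472 the difference of 29.0°C from 27.5°C was smaller at 48 hours than at 12 hours by 0.89 (48 minus 12 hours -0.89, 95% interval -1.64 to -0.14), and that of 31.5°C was nearly the same (-0.03, -0.78 to 0.72). For AOSB1028 the difference of 31.5°C from 27.5°C was larger at 48 hours by 1.06 (0.47 to 1.64), and that of 29.0°C shifted by -0.31 (-0.90 to 0.27). Between 29.0°C and 31.5°C, the means of both clones went from lower to higher in the warmer water. The shift was 0.86 (0.11 to 1.61) for AOSB472 and 1.37 (0.79 to 1.95) for AOSB1028. At 48 hours this difference of AOSB472 was 0.28 (-0.25 to 0.81), with overlapping arrays, and 0.06 without array 1 of 29.0°C. The shifts were not refitted without that array. These contrasts are built from those in view when the clones were picked and were not tested.

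Between 12 and 48 hours, the deubiquitinase clone AOSB472 fell. Over the 3 temperatures its ratio changed by -1.04 (95% interval -1.53 to -0.56, 3 RNA samples per time point, lower at 48 hours at 3 of 3 temperatures) with an adjusted p of 0.00507 by limma with Benjamini-Hochberg adjustment over 1099 clones. In this test 37.9% of the clones passed, 20.7% upwards and 17.2% downwards, and AOSB472 stood 64th from the lowest change. Without either RNA sample of 29.0°C the change was -0.75 with a limma adjusted p of 0.0623. The E2 clone AOSB1028 did not pass, with -0.22 (-0.79 to 0.35) and a limma adjusted p of 0.522. The interval of AOSB1028 holds changes of either sign. Leaving out either sample of 31.5°C gave a change of -0.62 for AOSB1028, and leaving out either sample of 29.0°C gave 0.06. Each fit without a sample rests on the other temperatures alone, because a sample left single at its temperature holds no difference over time. Such fits rest on fewer samples than the full fit.

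By temperature, the steps over time were of unequal size. At 29.0°C AOSB472 was 3.09-fold lower at 48 hours (difference -1.63, -2.16 to -1.10) and AOSB1028 was 1.72-fold lower (-0.78, -1.19 to -0.37), both past their limits with all arrays apart, where 23.1% of the tested clones were called lower and 36.9% of those with every array had all arrays apart downwards. With array 1 of 29.0°C at 48 hours left out these were -1.41 and -0.60, both still past their limits. At 27.5°C the differences were -0.73 (-1.26 to -0.20) and -0.47 (-0.88 to -0.05), both within their limits, where 20.8% were called lower. The arrays of AOSB472 lay apart there, as did 31.7% of the clones with every array, and those of AOSB1028 overlapped. Without array 1 of 27.5°C at 12 hours these were -0.46 and -0.28. The call of AOSB472 at 27.5°C was made, at -0.85, -0.90 and -0.73, when array 2 or 3 of 27.5°C at 12 hours or array 1 of 29.0°C at 48 hours was left out.

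At 31.5°C the clones moved in opposite directions over time. AOSB472 was 1.70-fold lower at 48 hours (-0.77, -1.30 to -0.24) and AOSB1028 was 1.51-fold higher (0.59, 0.18 to 1.00), each past its limit with all arrays apart. Among the tested clones 15.2% were called lower and 20.7% higher in this comparison, and 27.8% and 34.5% of those with every array had all arrays apart in these directions. The differences were -0.89, still called, and 0.60, no longer called, without array 1 of 31.5°C at 12 hours. Both calls were close to their limits. That of AOSB472 was lost, at -0.79 to -0.68, without array 2 or 3 of 29.0°C or of 31.5°C at 12 hours, array 2 of 27.5°C at 48 hours or any array of 31.5°C at 48 hours. That of AOSB1028 was lost, at 0.53 to 0.65, without array 3 of 27.5°C at 12 hours, any array of 29.0°C or 31.5°C at 12 hours, array 2 of 27.5°C or array 3 of 29.0°C at 48 hours, or any array of 31.5°C at 48 hours.

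The changes of the clones can be set beside each other on the same arrays. AOSB472 changed by 0.74 more than AOSB1028 (95% interval 0.45 to 1.03) from 27.5 to 29.0°C at 12 hours and by 0.70 more (0.41 to 0.99) from 27.5 to 31.5°C. At 48 hours it changed by 0.39 less from 27.5 to 31.5°C (-0.39, -0.68 to -0.10), and from 27.5 to 29.0°C the gap was 0.16 (-0.13 to 0.45). Over time the gap was -0.27 (-0.56 to 0.02) at 27.5°C, -0.85 (-1.14 to -0.56) at 29.0°C and -1.36 (-1.65 to -1.07) at 31.5°C, with AOSB472 the lower each time. The intervals hold technical variation only.

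The correlation of the clones was 0.69 over the 6 condition means and 0.71 over the 18 arrays. After each array was set against its own condition mean, the deviations of the clones still correlated at 0.84. Of the 1099 tested clones, 32 had deviations closer to those of AOSB472, a count that includes AOSB472 itself. Array 1 of 27.5°C at 12 hours was high for both (0.55 and 0.37 above the mean) and array 1 of 29.0°C at 48 hours was low for both (-0.43 and -0.36). Without these conditions the correlation of deviations was 0.63 over 12 arrays. The clones share every array, RNA sample and reference, and the source of the shared deviations was not tested.

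**Figure D3:**
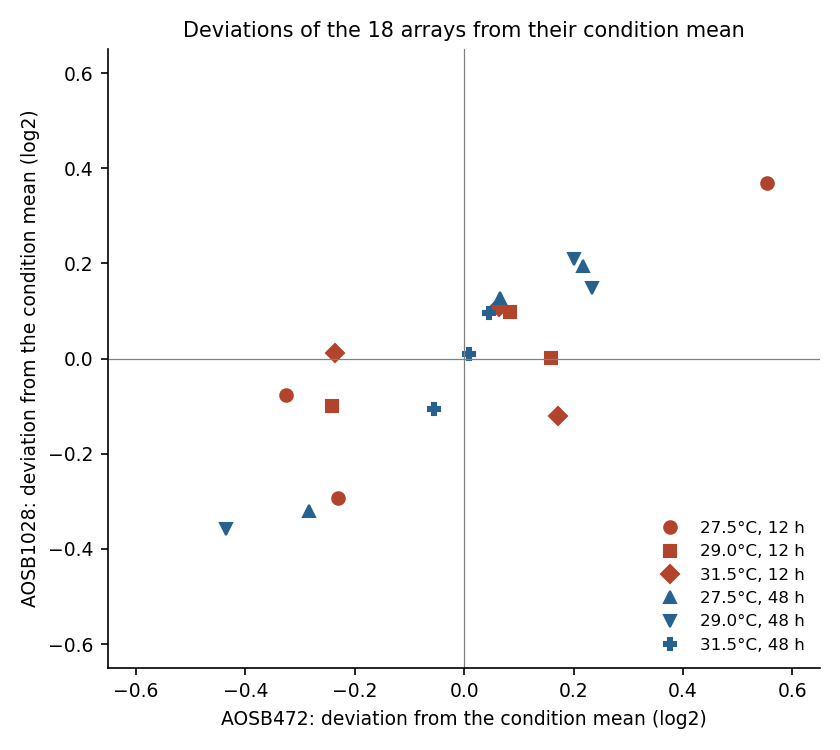
Deviation of each of the 18 arrays from its condition mean in log2, AOSB472 on the horizontal and AOSB1028 on the vertical axis, with 1 symbol per condition, red for 12 and blue for 48 hours. The points run along the diagonal (correlation 0.84) and end at array 1 of 27.5°C at 12 hours in the upper right and array 1 of 29.0°C at 48 hours in the lower left.

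The rest of the ubiquitin system on the arrays was described in the same comparisons. The study's annotation list holds 8 further clones of ubiquitin, its enzymes and the proteasome, and all 8 were tested here. The study chose the listed clones on these same samples, so their counts are no independent evidence. At 29.0°C after 12 hours none of the 8 was called higher and 2 were called lower, with a median difference of 0.05 against -0.02 over all tested clones. In the other comparisons with 27.5°C the calls were 1 higher and 2 lower at 31.5°C after 12 hours, then after 48 hours 0 and 1 at 29.0°C and 2 and 3 at 31.5°C. In the same order of comparisons, 6.82%, 7.46%, 2.64% and 8.64% of all tested clones were called higher and 11.1%, 9.28%, 5.19% and 14.6% lower, so that with 8 clones a count of 0 or 1 is near the background. The medians in these comparisons were -0.13, -0.03 and -0.26, against -0.02, 0.00 and -0.01 over all tested clones.

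Of these 8 clones, that of E3 ubiquitin-protein ligase UHRF1 (AOSB949) had the highest correlation with each of the pair. Its clone name begins with AOSB as theirs do, and clones with that prefix are counted together below. UHRF1 recognizes newly replicated DNA in mammals and helps to pass on its methylation. Its log2 ratios at 48 hours were -0.35, -0.46 and -0.79 at 27.5°C, -0.58, -0.15 and -0.27 at 29.0°C and 0.46, 0.40 and 0.28 at 31.5°C, so that the arrays of 31.5°C lay above all others. It was 0.91 higher at 31.5°C than at 27.5°C (limit 0.44) and 0.71 higher than at 29.0°C. At 12 hours it was 0.45 lower at 31.5°C than at 29.0°C (difference -0.45). Over time it was lower by 0.90 at 27.5°C (-0.90) and by 1.11 at 29.0°C (-1.11), and over the 3 temperatures its change of -0.65 missed the threshold with a limma adjusted p of 0.0544. Over the 6 condition means the correlation of AOSB949 was 0.86 with AOSB472 and 0.85 with AOSB1028, and its place among all tested clones was not counted.

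The other deubiquitinases were not above 27.5°C past their limits at 12 hours, as AOSB472 was. Ubiquitin carboxyl-terminal hydrolase 7 (AOSC877), which in human cells stabilizes the ligase that controls p53, was 0.46 lower at 31.5°C than at 27.5°C after 12 hours (-0.46, limit 0.45). Ubiquitin carboxyl-terminal hydrolase 24 (AOSF560) was 0.57 lower in the same comparison (-0.57, limit 0.36) and 0.58 higher at 31.5°C after 48 hours. Over development, AOSC877 fell as AOSB472 did, by 0.81 with a limma adjusted p of 0.00969, and AOSF560 changed by -0.24 with a limma adjusted p of 0.436.

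Among embryos of 48 hours, ubiquitin itself and the ubiquitin-like clone were lowest in the warmest water. The log2 ratios of the clone named Ubiquitin (AOSF1347) at 48 hours were 0.30, 0.13 and 0.48 at 27.5°C, 0.06, 0.10 and 0.23 at 29.0°C and -0.36, -0.30 and -0.26 at 31.5°C. It was thus 0.61 lower at 31.5°C than at 27.5°C (-0.61, limit 0.41), where AOSB1028 was higher by 1.14. Ubiquitin-like protein FUBI (CAON1748), made as a fusion with a ribosomal protein in mammals, had ratios of 0.40, 0.36 and 0.33 at 27.5°C, -0.04, 0.04 and 0.06 at 29.0°C and -0.52, -0.34 and -0.51 at 31.5°C. Its arrays separated the 3 temperatures in descending order, with differences from 27.5°C of -0.34 and -0.82 against a limit of 0.23. At 12 hours it was 0.38 lower at 29.0°C (-0.38) and 0.24 higher at 31.5°C. Over the 3 temperatures CAON1748 rose by 0.67 with time (limma adjusted p 0.0492), with differences of 1.01 at 27.5°C, 1.05 at 29.0°C and -0.05 at 31.5°C, the last within its limit. The clone annotated Ubiquitin-associated/EF1B (AOSF1317) was 0.34 lower at 29.0°C after 12 hours (-0.34, limit 0.33). It ran nearly opposite to AOSB472, with a correlation of -0.96 over the 6 means. AOSF1282, listed below with the proteases, had -0.96 too, and the share of all tested clones with such a value was not counted.

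Both proteasome clones carry a name of the same base subunit, Rpn1 in yeast and non-ATPase regulatory subunit 2 in human. The clone named rpn1 (AOSC1104) was 0.38 lower at 31.5°C than at 27.5°C after 48 hours (-0.38, limit 0.24). The other (AOSB764) had a difference of -0.296, within its limit of 0.304, and was not called. Over time AOSC1104 fell by 0.63 (limma adjusted p 0.0228), and AOSB764 changed by -0.25 (limma adjusted p 0.258). Neither was called in either comparison with 27.5°C at 12 hours.

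**Figure D4:**
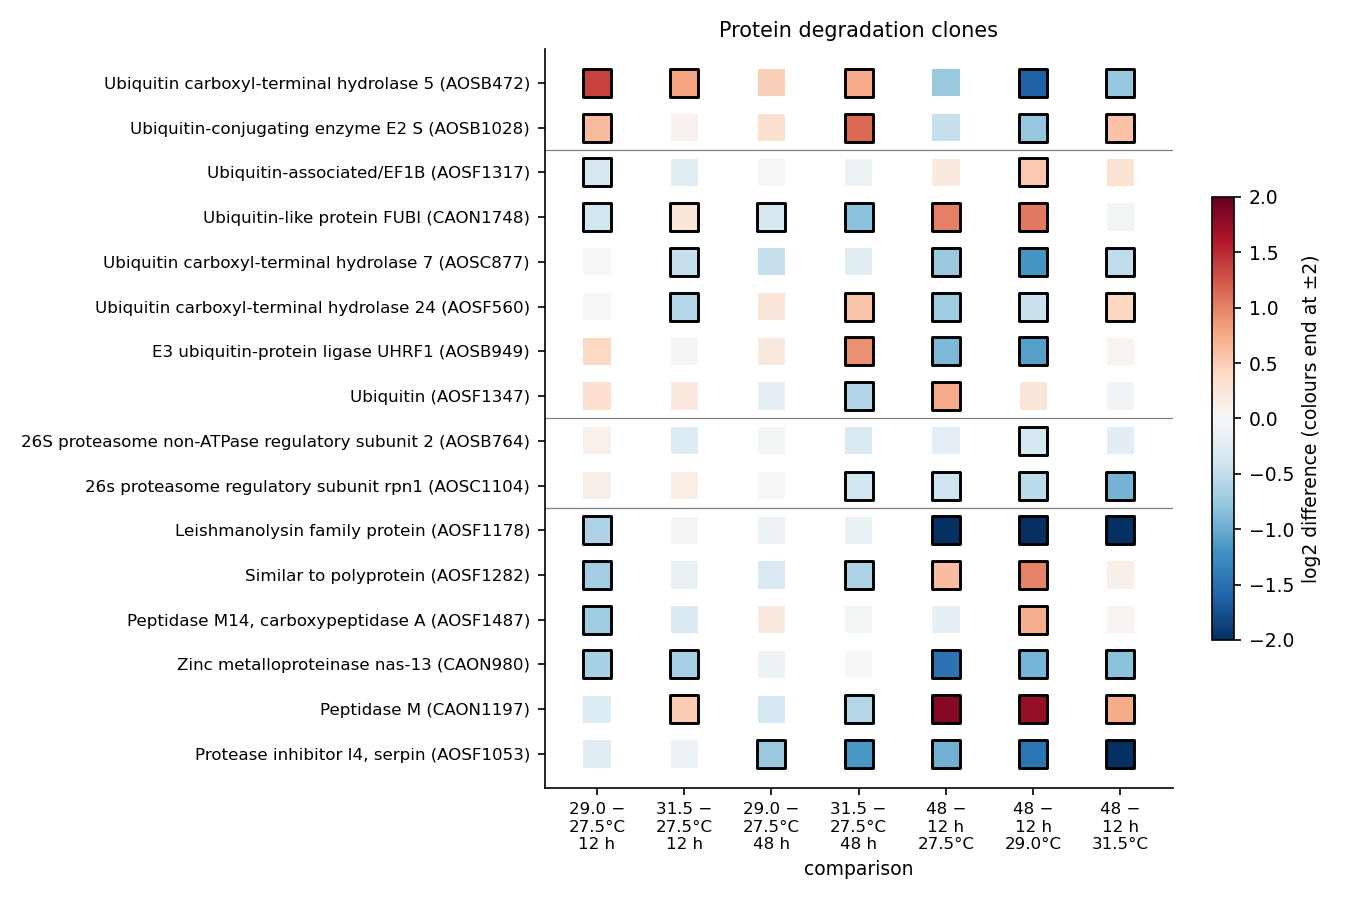
Log2 difference (colour, red for higher) of the 16 protein degradation clones of the annotation list (rows) in 7 comparisons (columns), with a black frame where a difference passed the limit of the clone and lines between the pair, the ubiquitin system, the proteasome, and proteases with their inhibitors. At 29.0°C against 27.5°C after 12 hours AOSB472 (1.37) and AOSB1028 (0.63) are the framed red cells, and the other framed cells are blue.

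Clones grouped here as proteases and protease inhibitors filled the rest of the degradation list, with 6 clones. At 29.0°C after 12 hours 4 of them were called lower and none higher, against 11.1% and 6.82% of all tested clones. These were the leishmanolysin family protein (AOSF1178, difference -0.62), AOSF1282 (-0.69), the carboxypeptidase A clone (AOSF1487, -0.71) and the zinc metalloproteinase nas-13 (CAON980, -0.65). AOSF1282 is annotated Similar to polyprotein, a name that gives no protease. At 31.5°C after 48 hours 3 were called lower, against 14.6% of all tested clones, and of these the serpin clone (AOSF1053), a serine protease inhibitor by its family, was the lowest at -1.16. The 14 clones of the list other than the pair had median differences of -0.25 and -0.13 for 29.0 and 31.5°C after 12 hours, and -0.10 and -0.26 for these temperatures after 48 hours.

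The study's list for cell proliferation, growth and development was read because ubiquitin-conjugating enzyme E2 S acts in cell division. The study chose this list on these same samples too, so its counts are no independent evidence. Of its 18 clones 17 were tested. Against 27.5°C, 4 were called higher and 4 lower at 29.0°C after 12 hours, and 3 higher and 5 lower at 31.5°C after 48 hours. Of all tested clones 6.82% and 11.1% were called higher and lower in the first comparison, and 8.64% and 14.6% in the second. Over development 3 rose and 9 fell by limma, against 20.7% and 17.2% of all tested clones, with a median of -0.57 against -0.01 over all tested clones. Those that fell include AOSB1020, AOSB1116, AOSB404, AOSB594 and AOSB668, and AOSB694 rose. Clones with this prefix are counted together in the next paragraph, and the parts of list and prefix were not separated.

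Clones whose names begin with AOSB, as both of these do, were counted as well. The sources used here do not give what the prefix means. Of 75 tested AOSB clones, 23 (30.7%) were called higher at 29.0°C than at 27.5°C after 12 hours, with a median difference of 0.31 against -0.02 over all tested clones. Without the pair these were 21 of 73 (28.8%). The prefix AOKF has 1 clone and was left out of these shares. Among the clones of the prefixes AOSC, AOSF, CAON and CAOO the shares ran from 3.30% to 5.93%. At 31.5°C after 48 hours 18 AOSB clones (24.0%) were called higher, 16 of 73 without the pair (21.9%), against 4.40% to 12.2% for those prefixes. At 31.5°C after 12 hours 8 AOSB clones were called higher and 8 lower, against 7.46% and 9.28% of all tested clones. From 12 to 48 hours 36 of the 75 fell and 3 rose by limma, against 17.2% and 20.7% of all tested clones, with a median of -0.49 against -0.01. The part of the prefix in the values of AOSB472 and AOSB1028 was not tested.

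**Figure D5:**
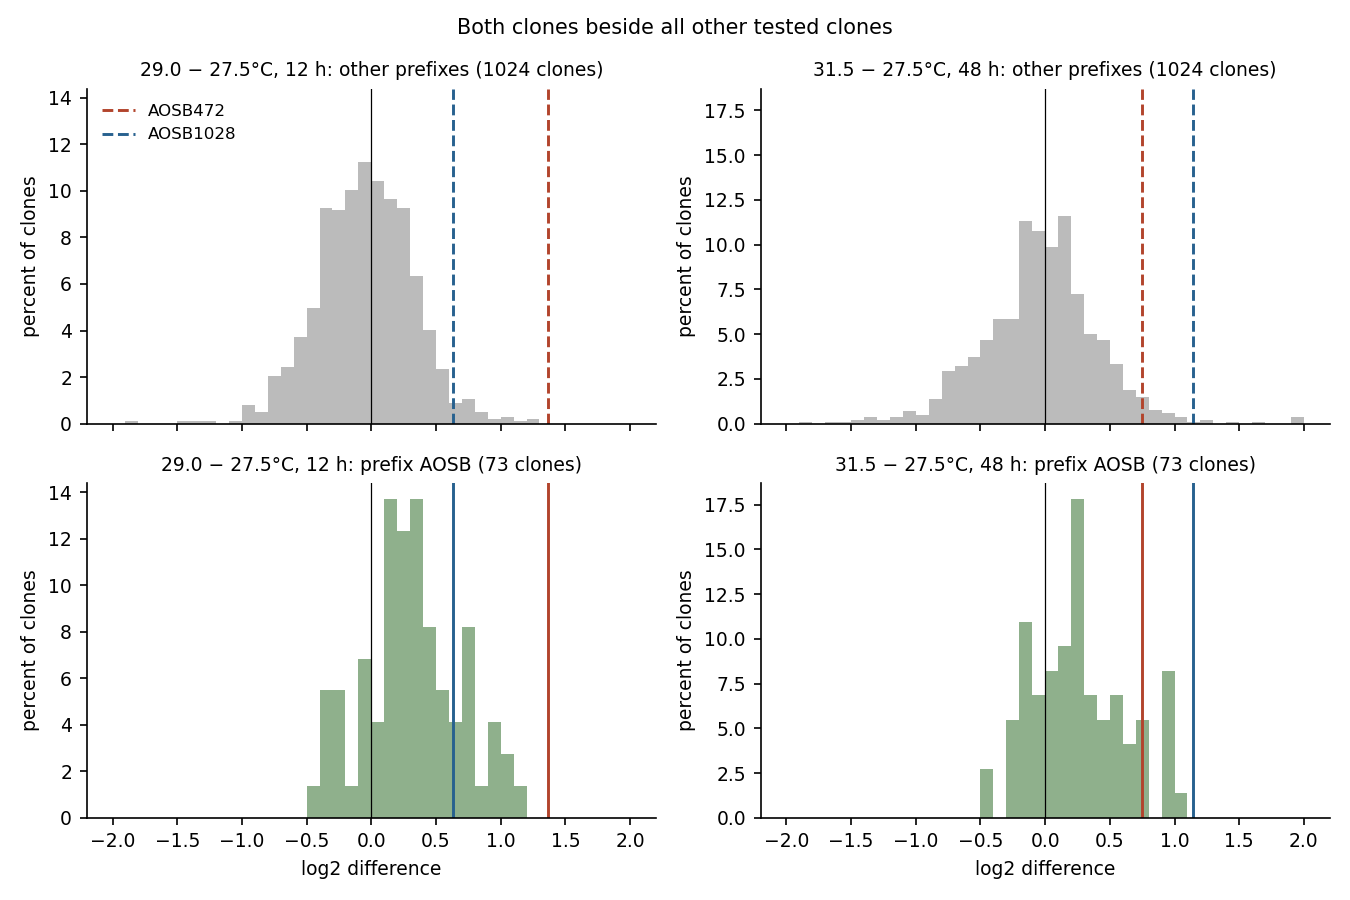
Distribution of the log2 difference over the tested clones (percent of clones per bin of the horizontal axis, values beyond 2 placed in the end bins) at 29.0°C against 27.5°C after 12 hours on the left and at 31.5°C against 27.5°C after 48 hours on the right, for clones of other prefixes above and the 73 other AOSB clones below. Vertical lines give AOSB472 (1.37 and 0.75) and AOSB1028 (0.63 and 1.14), and the median of the 73 AOSB clones is 0.29 on the left and 0.22 on the right.

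The clones most like each of the pair were found by Pearson correlation over the 6 condition means. For AOSB472 these were CAON1465 (0.99), CAOO714 (0.99), AOSB404 (0.99), CAON830 (0.98) and CAON452 (0.98), of which AOSB404 alone has a name in the annotation list, Smooth muscle. For AOSB1028 these were AOSC1064 (0.98), CAON1282 (0.98), AOSF1150 (0.98), CAOO861 (0.97) and CAON422 (0.97), none of them named. AOSB1028 stood 236th of 1098 in likeness to AOSB472, and AOSB472 stood 120th in likeness to AOSB1028. By Euclidean distance none of these 5 clones stayed among the nearest 5 for either, and over the 18 arrays 2 and 1 of them did. The conditions share the reference pool, and with 6 points these lists are a description.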

How the data were processed

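Coral cDNA clones were spotted on 2-colour arrays, with Cy5 for embryo RNA and Cy3 for the common reference and no dye swap. The authors took spot intensity with local background removed from TIGR Spotfinder 2.2.4. From it they made the deposited table of log2 ratios, Cy5 over Cy3, by print-tip LOWESS in MIDAS 2.19. How duplicate spots were combined is not given in the sources used here. Its scale was checked against print-tip loess log2 ratios of the spots, with interquartile ranges agreeing at ratios of 0.898 to 1.07. The spots carry no clone names, so clone values came from the table.

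Groups follow the temperatures in the sample titles. Other labels of the same samples give rounded temperatures, and the labels and methods describe the reference pool differently, which cancels between conditions. A clone was tested if 2 of the 3 arrays of every condition gave a value (1099 clones), and 918 had all arrays. A linear model with 6 condition means and 1 spread (12 residual degrees of freedom) gave a 95% interval per mean, and non-overlap made a call. The time effect was fitted with limma 3.58.1 in R 4.3.3 on the 6 condition means with temperature as a factor, at 0.05 after Benjamini-Hochberg adjustment. P-values there rest on 1 RNA isolation per condition. The number of arrays limits the precision. Both procedures were tested on simulated data.

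The clones named were the pair, the other ubiquitin and proteasome clones, called proteases, and the 5 most alike clones. Members and lists were chosen with earlier results of these data known. Centring, scaling, other spreads, array weights, a replicate block and left-out arrays or samples were tried.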

Additional observations from a re-analysis of the deposited data

Results flagged for a closer look

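AOSB1028 moved in opposite directions between 29.0 and 31.5°C at the different times, with all arrays apart each time. Its ratio at 31.5°C was below that at 29.0°C after 12 hours (difference -0.54, within its limit of 0.58) and above it after 48 hours (0.83). In the same way its change from 12 to 48 hours was -0.78 at 29.0°C and 0.59 at 31.5°C, where the call of the latter was lost when any of 12 of the 18 arrays was left out. The difference between these changes is 1.37 (95% interval 0.79 to 1.95, technical variation only) and was not tested.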

How the results depend on the processing

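All values here are log2 differences, and results not named under a setting kept their direction and their side of the limit or threshold there. With each array left out in turn, the ranges were 0.48 to 0.82 for AOSB1028 at 29.0°C and -0.060 to 0.27 at 31.5°C against 27.5°C after 12 hours, where the sign turned without array 2 of 27.5°C. The range was -0.60 to -0.48 for AOSB1028 at 31.5°C against 29.0°C after 12 hours, where 3 arrays made the call when left out (array 1 of 27.5°C at 12 hours, array 3 of 27.5°C and array 1 of 29.0°C at 48 hours). For AOSB472 against 27.5°C the ranges were 0.62 to 1.06 at 31.5°C after 12 hours and 0.61 to 0.86 after 48 hours. Over time they were -0.90 to -0.46 at 27.5°C and -0.89 to -0.68 at 31.5°C for AOSB472, and 0.53 to 0.65 at 31.5°C for AOSB1028. The pair's other comparisons kept their side with each array left out. Without an RNA sample of 29.0°C, the limma change over time of AOSB472 was -0.75 and that of AOSB1028 turned to 0.063, and without one of 31.5°C that of AOSB1028 was -0.62.

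Centring the arrays brought AOSB472 past its limit over time at 27.5°C (-0.77). Scaling them to 1 median absolute deviation did so too (-1.13), made calls of AOSB1028 in that comparison (-0.69) and of AOSB472 at 29.0°C after 48 hours (0.76), and lost that of AOSB1028 at 29.0°C after 12 hours (0.49). With a spread taken from the conditions compared and no others, the calls of AOSB1028 at 29.0°C (0.63) and AOSB472 at 31.5°C (0.79) after 12 hours were lost, and that of AOSB1028 at 31.5°C against 29.0°C after 12 hours (-0.54) was made. Limma over the arrays made that call (-0.54) and those over time at 27.5°C (AOSB472 -0.73, AOSB1028 -0.47). With array weights it called AOSB472 (-0.53) and AOSB1028 (-0.59) at 31.5°C against 29.0°C after 12 hours, both at 29.0°C after 48 hours (0.62 and 0.41), and AOSB472 over time at 27.5°C (-0.54). With array 3 alone for 27.5°C at 12 hours, whose header code it shares with the other conditions, AOSB1028 at 29.0°C lost its call (0.71). Leaving out the 2 arrays least correlated with their condition, chosen after seeing the data, made the call of AOSB472 over time at 27.5°C (-0.73) and lost those of AOSB1028 at 29.0°C (-0.60) and 31.5°C (0.60). The cause was not tested for any of these. Median spot signal over background was 3.92 to 9.83 in Cy3 and 4.27 to 15.3 in Cy5, and the arrays of 27.5°C at 12 hours had the fewest usable spots.

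The replicate numbers do not pair the arrays, since deviations of same-numbered arrays correlated at a median of 0.01 (-0.18 to 0.27 over 45 pairs). With the replicate number as a block the limits rose to 0.83 and 0.64, and 5 calls were lost at unmoved values (AOSB1028 at 29.0°C after 12 hours, 0.63; AOSB472 at 31.5°C after 12 hours, 0.79, and 48 hours, 0.75; over time at 31.5°C AOSB472, -0.77, and AOSB1028, 0.59). For the change over time, the block could be fitted over the 18 arrays and not over the 6 means, and 703 clones passed in place of 417, with both choices changed.

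Counts of all clones called in either direction moved by over 1.5 times as follows. Scaling took 197 to 108 at 29.0°C after 12 hours, 187 to 115 for 31.5°C against 29.0°C after 12 hours and 86 to 143 at 29.0°C after 48 hours. The spread of the compared conditions took 197 to 110, 184 to 72 at 31.5°C after 12 hours and 256 to 497 at 31.5°C after 48 hours. Limma over the arrays took 86 to 49. Limma with array weights, which changes both test and weights, took 187 to 397 (183 without weights), 86 to 221 (49), 256 to 634 (308), 197 to 482 (211) for 31.5°C against 29.0°C after 48 hours and 394 to 657 (476) over time at 31.5°C. Without a sample of 27.5°C or of 29.0°C, limma over time gave 204 and 227 in place of 417.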
